A study of Mus musculus with 18 samples.

Results

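Prostaglandins and leukotrienes are lipid mediators made from arachidonic acid, and 10 mouse genes of their pathway were followed across gut dendritic cells (DCs). They were Pla2g4a, Alox5, Alox5ap, Ltc4s, Alox15, Ptgs1, Ptgs2, Ptges, Ptger2 and Ptger4, chosen by symbol and matched by Ensembl identifier to 10 of the 54232 genes in the count table. The 18 RNA-seq libraries were of DCs from C57BL/6J mice whose labels give the genotype as CD11a KO, CD11a being the integrin alpha chain encoded by Itgal. There were 6 groups of 3 libraries. CD11b+, CD103+ and Double+ DCs (CD11b+ CD103+, here called double-positive) came from the small intestinal lamina propria (LP), and the same 3 subsets came from the intestinal lymph node (LN). All groups carry the knockout, so no wild-type control was compared, and no treatment, age or sex is labelled for single libraries, although the text common to all samples names both steady-state and Salmonella-infected mice. For LP DCs the labels describe a sort of live CD45+ CD64- cells with high MHC class II and CD11c, after the Peyer's patches had been taken out of the gut. How the LN DCs were sorted is not described there. Nothing in the labels says whether each library was a separate mouse or a pool, so p-values measure the spread between libraries, which may be technical.

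In this pathway, a phospholipase frees arachidonic acid from membranes and the fatty acid then enters one of several branches. Lipoxygenases lead to leukotrienes and related hydroxy acids, which act on leukocyte receptors, and cyclooxygenases lead to prostaglandins and thromboxane. Prostaglandin E2 (PGE2) is known for its action on DC maturation, cytokine output and migration, and its receptors EP2 and EP4 both raise cyclic AMP.

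Libraries held 23574292 to 46901985 counted reads. Of 5 DC markers, Flt3 and Zbtb46 were at 161 CPM or more in every library, while H2-Ab1, Cd74 and Itgax lay below the LP libraries in all LN libraries of the same subset. In CD103+ DCs H2-Ab1 was at 3517 to 3622 CPM in the LN and at 27198 to 28443 CPM in the LP, Cd74 at 14004 to 14596 and 36085 to 39161 CPM, and Itgax at 81.0 to 89.3 and 341 to 436 CPM. Some libraries and groups stood apart from their labels. Itgal was read in all 18 libraries, at 6.45 to 26.6 counts per 1000000 reads (CPM), so read counts over the whole gene do not check the knockout. All 9 LP libraries held reads of the Y-linked Ddx3y (50.04 to 74.4 CPM) and next to none of Xist, whereas all 9 LN libraries held Xist (15.4 to 89.1 CPM). Replicate C of LN CD11b+ DCs and replicate C of LN double-positive DCs held both. Tissue and the sex of the animals therefore cannot be told apart in CD103+ DCs, and in the other subsets only 1 LN library each held Ddx3y, beside Xist. Itgae, the gene of CD103, was at 27.0 to 49.1 CPM in LN CD103+ and double-positive DCs. The same subsets of the LP held 714 to 1440 CPM and LP CD11b+ DCs 92.1 to 293 CPM. Itgam, the gene of CD11b, was at 4.85 to 5.76 CPM in LN double-positive DCs. LP double-positive DCs held 63.2 to 76.4 CPM and LN CD11b+ DCs 13.8 to 25.7 CPM. The subset marker Xcr1 was at 53.2 to 87.6 CPM in LN double-positive and 94.9 to 103 CPM in LN CD103+ DCs. LP double-positive and CD103+ DCs held 24.9 to 27.3 and 1391 to 1410 CPM. Irf8 was in that order at 618 to 749, 1554 to 1656, 77.4 to 92.6 and 4441 to 4969 CPM. Sirpa was at 139 to 170, 14.2 to 15.3, 415 to 446 and 4.41 to 4.74 CPM. Whether a label holds the same cells in both tissues was not tested. The summed level of 12 T cell markers was 456 to 918 CPM in LN libraries and 17.4 to 229 CPM in LP libraries. That of 10 macrophage markers was 1363 to 3082 CPM in LP CD11b+ DCs, 506 to 789 CPM in LN CD11b+ DCs and at most 389 CPM elsewhere. The part of these cells in the results below was not tested. In sorted bulk samples, fewer cells that use a gene and less RNA per cell cannot be told apart.

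Levels are CPM with TMM-normalized library sizes, given for replicates A, B and C in that order, or as mean ± SD with n = 3 libraries. Differences are log2 fold changes (± standard error) from edgeR's quasi-likelihood fit of 17074 genes, with Benjamini-Hochberg adjusted p over all of them. A gene passed the test at an adjusted p under 0.01 and a change over 2-fold, and rose, fell, higher and lower are used for differences that passed. All 10 genes passed the filter on low counts. Across the 9 pairwise comparisons, Alox5 passed in 9, Ptgs1 in 8, Ptger2 in 7, Pla2g4a, Ptgs2 and Ptger4 in 6 each, Alox5ap and Ltc4s in 5 each, Alox15 in 3 and Ptges in 1. Comparisons within a tissue or subset share libraries.

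**Figure D1:**
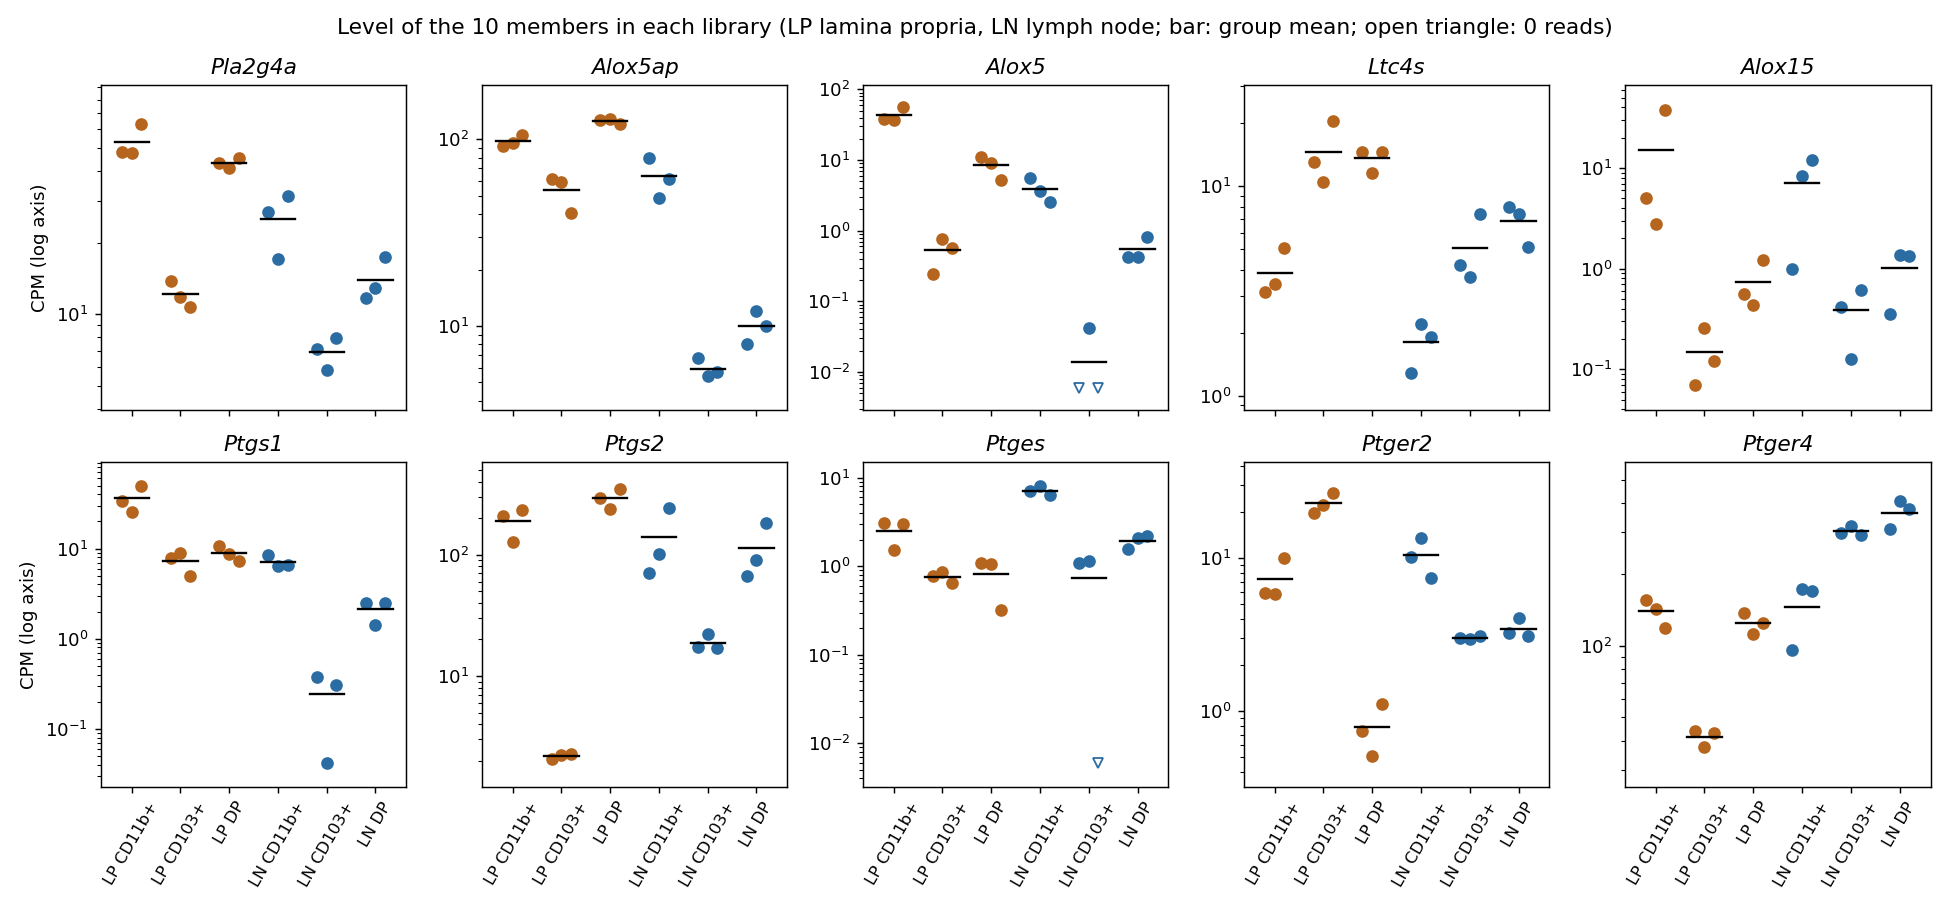
Level of each of the 10 genes in CPM on a log axis, 1 panel a gene with its own scale, against the 6 groups. Points are libraries (brown LP, blue LN), bars are group means and open triangles mark libraries with 0 reads. Alox5, Alox5ap and Ptgs1 were lowest in LN CD103+ DCs, Ptgs2 was lowest in LP CD103+ DCs, and Ptger4 was above all LP libraries in LN CD103+ and LN double-positive DCs.

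Pla2g4a encodes cytosolic phospholipase A2 alpha, which cuts arachidonic acid from membrane phospholipids. It lies on the minus strand of chromosome 1 at 149829618 to 149961290 (GRCm38, GENCODE vM21, as for all genes below). In the LP it was at 48.2, 47.5 and 62.9 CPM in CD11b+ DCs, at 13.8, 11.9 and 10.8 CPM in CD103+ DCs and at 43.2, 41.3 and 45.5 CPM in double-positive DCs. In the LN the values were 26.9, 17.1 and 31.5 CPM in CD11b+ DCs, 7.18, 5.82 and 7.93 CPM in CD103+ DCs and 11.7, 12.9 and 17.4 CPM in double-positive DCs. In each subset all 3 LN libraries were below all 3 LP libraries. The fall passed in CD11b+ DCs (-1.07 ± 0.20, adjusted p = 0.000469) and in double-positive DCs (-1.63 ± 0.20, adjusted p = 3.14e-06), while in CD103+ DCs the difference was -0.80 ± 0.21 (adjusted p = 0.00311), less than 2-fold. The F test of a tissue effect that is unequal between subsets did not pass for Pla2g4a (adjusted p = 0.0654). The fall in CD11b+ DCs was close to the 2-fold limit, at -0.93 without replicate C of LP CD11b+ DCs, at -0.86 without replicate B of LN CD11b+ DCs and at -0.95 with total-count scaling. CD103+ DCs had less Pla2g4a than CD11b+ DCs in the LP (-2.12 ± 0.21, adjusted p = 4.18e-07) and in the LN (-1.85 ± 0.21, adjusted p = 1.31e-06). The double-positive DCs of the LP had 3.56-fold more than the CD103+ DCs there (adjusted p = 2.26e-06). In the LN this difference was 1.00 ± 0.21 (adjusted p = 0.00197), at the limit of 2-fold, and fell under that limit with the size factors or test of DESeq2, after thinning, with a stricter filter, and without replicate B of LN CD103+ or replicate C of LN double-positive DCs (0.90 and 0.82).

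Alox5 encodes 5-lipoxygenase, which starts leukotriene synthesis (chromosome 6, 116410077 to 116461178, minus strand). It had the widest range of levels among the 10 genes. In LP CD11b+ DCs it was at 38.6, 36.8 and 56.4 CPM and in LP double-positive DCs at 11.1, 9.08 and 5.25 CPM, against 0.248, 0.774 and 0.571 CPM in LP CD103+ DCs. The LN CD11b+ DCs held 5.57, 3.64 and 2.53 CPM and the LN double-positive DCs 0.43, 0.419 and 0.808 CPM. LN CD103+ DCs held 0, 1 and 0 reads. LP CD11b+ DCs were thus apart from every other group, and LP double-positive DCs overlapped LN CD11b+ DCs. From LP to LN, Alox5 fell 11.2-fold in CD11b+ DCs (-3.49 ± 0.39, adjusted p = 3.25e-06) and 15.6-fold in double-positive DCs (-3.96 ± 0.44, adjusted p = 8.09e-07). In CD103+ DCs the test also passed (adjusted p = 0.000146), on 57 reads in the LP and 1 read in the LN, a ratio of 40.6 with a 95% counting interval of 6.99 to 1629 (exact conditional Poisson test). This interval covers counting error only. The F test found no passing difference between the 3 tissue effects of Alox5 (adjusted p = 0.491). Within tissues Alox5 passed in each of the 6 subset comparisons. LP CD11b+ DCs had 79.7-fold more than LP CD103+ DCs (adjusted p = 1.5e-08) and 5.17-fold more than LP double-positive DCs (adjusted p = 0.000383), and LP double-positive DCs had 15.4-fold more than LP CD103+ DCs (adjusted p = 1.7e-06). LN CD11b+ DCs had 7.18-fold more than LN double-positive DCs (adjusted p = 5.2e-05), and 371 reads against the 1 read of LN CD103+ DCs, a ratio of 279.7 (95% counting interval 49.9 to 11078). LN double-positive DCs held 40 reads against that 1 read, a ratio of 37.5 (6.36 to 1519).

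Alox5ap encodes FLAP, the membrane protein that presents arachidonic acid to 5-lipoxygenase (chromosome 5, 149264767 to 149288153, plus strand). It was at 92.6, 96.0 and 106 CPM in LP CD11b+ DCs, at 61.7, 59.1 and 40.5 CPM in LP CD103+ DCs and at 127, 129 and 121 CPM in LP double-positive DCs. In the LN it was at 79.7, 48.7 and 61.7 CPM in CD11b+ DCs, at 6.72, 5.44 and 5.65 CPM in CD103+ DCs and at 8.05, 12.1 and 10.0 CPM in double-positive DCs. Every LN library of CD103+ and double-positive DCs was therefore below every LP library. The LN CD11b+ libraries were below all LP CD11b+ libraries but overlapped LP CD103+ DCs. Alox5ap fell 9.05-fold in CD103+ DCs (-3.18 ± 0.20, adjusted p = 5.47e-10) and 12.5-fold in double-positive DCs (-3.64 ± 0.20, adjusted p = 1.26e-10), and the difference in CD11b+ DCs was -0.63 ± 0.17 (adjusted p = 0.00846), under the 2-fold limit. These tissue effects were unequal between subsets by the F test (adjusted p = 1.71e-07). In the LN, CD11b+ DCs accordingly had 10.7-fold more Alox5ap than CD103+ DCs (adjusted p = 5.04e-10) and 6.29-fold more than double-positive DCs (adjusted p = 1.47e-08). In the LP the difference between CD103+ and CD11b+ DCs was -0.87 ± 0.17 (adjusted p = 0.000797), under 2-fold.

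Ltc4s encodes leukotriene C4 synthase, which joins glutathione to leukotriene A4 (chromosome 11, 50236461 to 50238616, minus strand). In each tissue its mean level was lowest in CD11b+ DCs, the subset with the most Alox5. LP CD11b+ DCs held 3.12, 3.40 and 5.09 CPM and LN CD11b+ DCs 1.28, 2.21 and 1.90 CPM. LP CD103+ DCs held 13.1, 10.5 and 20.4 CPM and LP double-positive DCs 14.5, 11.6 and 14.7 CPM. LN CD103+ DCs held 4.23, 3.67 and 7.41 CPM and LN double-positive DCs 7.93, 7.37 and 5.13 CPM. In both tissues CD103+ and double-positive DCs overlapped each other, and in the LP they lay above all CD11b+ libraries. Ltc4s was higher in CD103+ than in CD11b+ DCs in the LP (1.91 ± 0.32, adjusted p = 0.000141) and in the LN (1.51 ± 0.33, adjusted p = 0.000897), though the latter missed the threshold with total-count scaling (1.07, adjusted p = 0.0101). It was likewise higher in double-positive than in CD11b+ DCs in the LP (1.81 ± 0.32, adjusted p = 0.000954) and in the LN (1.92 ± 0.33, adjusted p = 0.000145). From LP to LN it fell in CD103+ DCs (-1.52 ± 0.32, adjusted p = 0.000495). The differences in CD11b+ DCs (-1.11 ± 0.32, adjusted p = 0.0122) and double-positive DCs (-0.997 ± 0.31, adjusted p = 0.0108) were just short of the thresholds, and with no filter on low counts both passed (adjusted p = 0.00871 and 0.00771). The antisense gene Gm26542 overlaps exons of Ltc4s with 828 reads over the 18 libraries, and counting that ignores strand cannot assign reads from the shared bases to either gene, so the counts of Ltc4s are uncertain. Mast cells and eosinophils are known sources of cysteinyl leukotrienes. The sum of 10 mast cell markers was 192, 27.1 and 33.5 CPM in LN CD11b+ DCs, 5.65 to 27.0 CPM in LN double-positive DCs and at most 3.41 CPM in the other groups, where 5 to 8 of the 10 markers had no reads. That of 8 eosinophil markers was 264 to 340.1 CPM in LP double-positive DCs, 85.2 to 167 CPM in LP CD11b+ DCs and 6.66 to 127 CPM elsewhere. In LP double-positive DCs that sum lay mostly in Siglecf (109.6 to 179 CPM) and Ear2 (152 to 174 CPM), while Ccr3 was highest in replicate C of LP CD11b+ DCs (15.3 CPM) and Epx did not pass 0.183 CPM in any library. Replicate A of LN CD11b+ DCs, with the highest mast cell sum, had the highest Alox5 and Alox5ap of the LN libraries, at 5.57 and 79.7 CPM, and the lowest Ltc4s of all 18, at 1.28 CPM. The part of these cells in the levels of the leukotriene genes was not tested.

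Alox15 encodes the mouse leukocyte-type lipoxygenase that oxygenates arachidonic acid at positions other than that used by 5-lipoxygenase (chromosome 11, 70344152 to 70352031, minus strand). Its libraries varied most within groups. LP CD11b+ DCs held 5.06, 2.78 and 37.6 CPM and LN CD11b+ DCs 1.00, 8.28 and 12.1 CPM, so that a single library, replicate C of LP CD11b+ DCs, held the highest value. The other 4 groups were at 0.0707 to 1.36 CPM. Alox15 was higher in CD11b+ than in CD103+ DCs in the LP (91.2-fold, adjusted p = 0.000278) and in the LN (18.4-fold, adjusted p = 0.00286), and higher in CD11b+ than in double-positive DCs in the LP (20.5-fold, adjusted p = 0.00764). Without replicate C of LP CD11b+ DCs the difference from LP CD103+ DCs went from -6.51 ± 1.16 to -4.57 ± 0.91 (adjusted p = 0.000966), and without replicate B of LP CD103+ DCs to -7.24 ± 1.53 (adjusted p = 0.00175). With the letter as a block within tissue it was -5.69 ± 0.87. The call in the LP against double-positive DCs was lost when replicate C of LP CD11b+ DCs was left out (-2.41 ± 0.81, adjusted p = 0.0681). It was also lost without any 1 of 9 other libraries, with adjusted p between 0.0101 and 0.0406. These were the 3 LP double-positive libraries, replicates A and C of LP CD103+ DCs, replicate B of LN CD11b+ DCs, replicate A of LN CD103+ DCs and replicates B and C of LN double-positive DCs. The call in the LN against CD103+ DCs was lost without replicate C of LN CD11b+ DCs (-3.62 ± 1.08, adjusted p = 0.0115) and without replicate A or B of LN CD103+ DCs (adjusted p = 0.0127 and 0.0166). No tissue difference passed, and that in CD11b+ DCs (-1.09 ± 0.86, adjusted p = 0.348) had the opposite sign (0.86 ± 0.79, adjusted p = 0.44) without replicate C of LP CD11b+ DCs. The same library had the highest sum of macrophage markers, 3082 CPM against 1680 and 1363 CPM in replicates A and B, and of 8 neutrophil markers, 150.1 CPM against 48.8 and 38.9 CPM. The 5 neutrophil markers with reads there, Retnlg (73.5 CPM), Csf3r (57.5 CPM), Cxcr2 (15.5 CPM), S100a9 (2.34 CPM) and S100a8 (1.29 CPM), were each highest in that library among the LP CD11b+ DCs, and the other 3 markers had no reads in it. Among the LP CD11b+ DCs, replicate C also had the highest sum of 8 eosinophil markers, 167 CPM against 85.2 and 96.7 CPM. The macrophage markers were not all highest in it. Lyz1 (1645 CPM), C1qb (522 CPM), C1qc (360 CPM), C1qa (311 CPM), Adgre1, Cx3cr1 and Mertk were. Fcgr1 (7.90 CPM) and Mrc1 (32.7 CPM) were lowest in replicate C, and Cd163 (23.1 CPM) was below replicate B (25.0 CPM). In LN CD11b+ DCs the macrophage sums of replicates A, B and C were 691, 506 and 789 CPM. The neutrophil sums there were 40.3, 32.6 and 53.6 CPM and the eosinophil sums 127, 78.4 and 110 CPM, while Alox15 was lowest in replicate A. The part of these cells in the level of Alox15 was not tested.

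**Figure D2:**
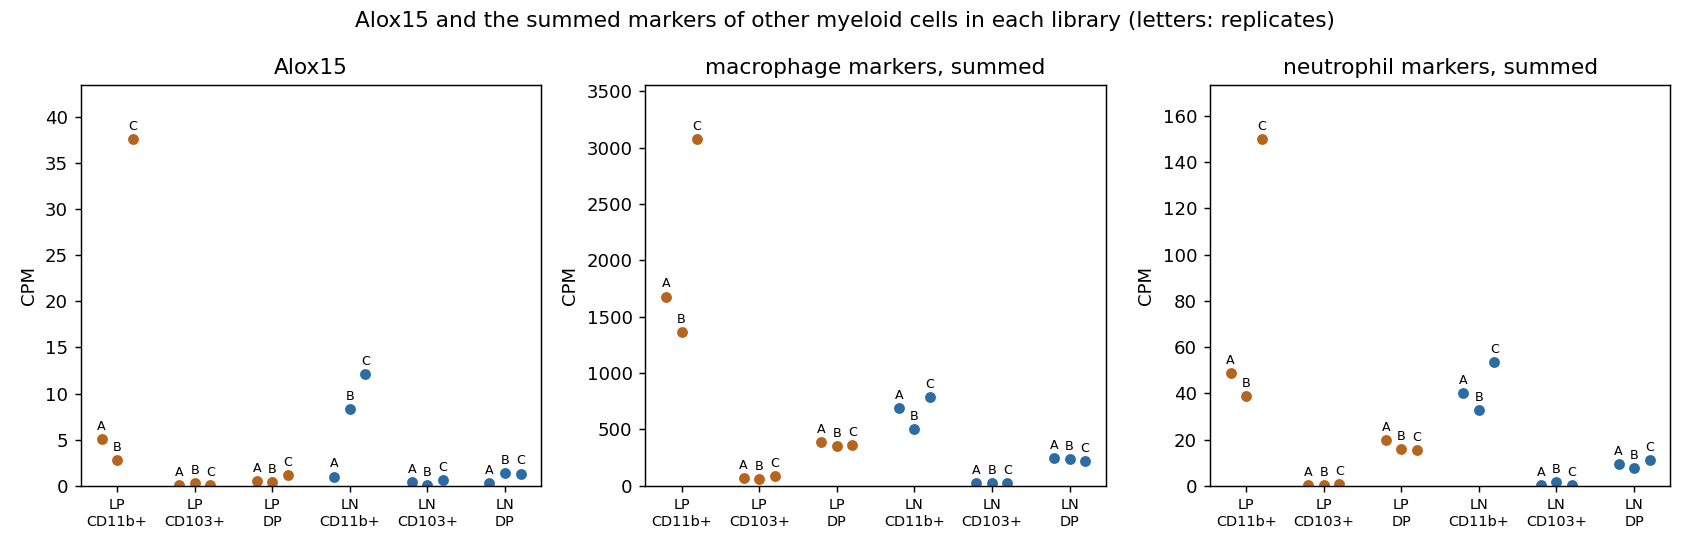
Alox15 (left), the sum of 10 macrophage markers (middle) and the sum of 8 neutrophil markers (right) in CPM on linear axes against the 6 groups, with a point for each library and its replicate letter. Replicate C of LP CD11b+ DCs is highest in all 3 panels, at 37.6, 3082 and 150.1 CPM.

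Ptgs1 and Ptgs2 encode the cyclooxygenases COX-1, as a rule constitutive, and COX-2, which many cells induce on activation. Ptgs1 lies on chromosome 2 at 36230426 to 36252272 and Ptgs2 on chromosome 1 at 150100031 to 150108227, both on the plus strand. The 250 bases before the RefSeq start of each (GRCm38.p6) are shown 5′ to 3′ because the pair moved apart between groups, with CpG dinucleotides in capitals. They cover chr2:36230176-36230425 (plus strand) for Ptgs1 and chr1:150099781-150100030 (plus strand) for Ptgs2.
Ptgs1: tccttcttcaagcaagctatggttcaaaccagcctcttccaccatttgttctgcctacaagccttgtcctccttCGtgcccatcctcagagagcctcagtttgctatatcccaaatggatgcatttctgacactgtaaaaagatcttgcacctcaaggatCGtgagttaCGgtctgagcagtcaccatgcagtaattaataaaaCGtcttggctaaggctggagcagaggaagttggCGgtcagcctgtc
Ptgs2: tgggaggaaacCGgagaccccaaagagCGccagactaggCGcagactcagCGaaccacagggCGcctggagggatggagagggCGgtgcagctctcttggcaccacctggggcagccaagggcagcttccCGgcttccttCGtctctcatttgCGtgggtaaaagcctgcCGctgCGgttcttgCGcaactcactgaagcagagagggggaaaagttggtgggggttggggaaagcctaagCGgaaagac
The Ptgs1 stretch had 48.0% G+C and 5 CpG dinucleotides and that of Ptgs2 61.6% and 13, where the median over 32851 RefSeq promoter windows of this length was 52.4% and 6. Motifs were searched by their letters on both strands. TGACGTCA, the cyclic AMP response element, occurs in 1.55% of all windows, and its first 6 letters, which overlap it, in 6.38%. TGANTCA, the AP-1 motif, occurs in 6.75%, and CACGTG, the E-box, in 6.02%. TATAAA occurs in 12.4% and the kB motif in 3.90%. GAGGAAGT, bound by PU.1, occurs in 2.44%. The Ptgs1 stretch held GAGGAAGT from base -24 and none of the other motifs. In the Ptgs2 stretch no motif matched, which says only that these letters are not in this window.

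Ptgs1 was at 33.4, 25.3 and 49.3 CPM in LP CD11b+ DCs, at 7.82, 8.86 and 4.98 CPM in LP CD103+ DCs and at 10.8, 8.64 and 7.28 CPM in LP double-positive DCs. In the LN it was at 8.55, 6.40 and 6.49 CPM in CD11b+ DCs, at 0.373, 0.0422 and 0.307 CPM in CD103+ DCs and at 2.50, 1.43 and 2.47 CPM in double-positive DCs. Each LN group lay below the same subset of the LP without overlap. Ptgs1 fell 5.03-fold in CD11b+ DCs (-2.33 ± 0.35, adjusted p = 5.44e-05), 29.6-fold in CD103+ DCs (-4.89 ± 0.45, adjusted p = 7.69e-08) and 4.18-fold in double-positive DCs (-2.06 ± 0.36, adjusted p = 9.88e-05). The F test passed (adjusted p = 0.00154), with the fall in CD103+ DCs being the largest of the 3. In the LP, CD11b+ DCs had 4.97-fold more than CD103+ DCs (adjusted p = 4.57e-05) and 4.05-fold more than double-positive DCs (adjusted p = 0.000683), and the latter pair did not pass (0.30 ± 0.33, adjusted p = 0.55).

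Ptgs2 was at 207, 127 and 232 CPM in LP CD11b+ DCs and at 291, 237 and 345 CPM in LP double-positive DCs, but at 2.05, 2.22 and 2.28 CPM in LP CD103+ DCs. Double-positive DCs of the LP thus had 133-fold more Ptgs2 than CD103+ DCs of the same tissue (7.06 ± 0.53, adjusted p = 1.78e-08), and CD11b+ DCs had 86.2-fold more (6.43 ± 0.52, adjusted p = 3.95e-08). LP double-positive and CD11b+ DCs did not pass against each other (0.63 ± 0.38, adjusted p = 0.343). The sum of 11 epithelial markers followed the same order in the LP, at 223 to 543 CPM in CD11b+, 64.0 to 112 CPM in CD103+ and 575 to 844 CPM in double-positive DCs. In the LN that sum was at 36.5 to 47.5, 26.6 to 35.0 and 66.5 to 71.2 CPM, whereas Ptgs2 rose in CD103+ DCs (below). The part of epithelial cells in the level of Ptgs2 was not tested. In the LN the gap was narrower, since CD103+ DCs held 17.3, 22.2 and 17.1 CPM against 71.2, 102 and 243 CPM in CD11b+ DCs and 66.5, 90.8 and 182 CPM in double-positive DCs. There Ptgs2 was 7.36-fold lower in CD103+ than in CD11b+ DCs (-2.88 ± 0.42, adjusted p = 2.06e-05; -2.24 ± 0.34 without replicate C of LN CD11b+ DCs) and 5.99-fold higher in double-positive than in CD103+ DCs (adjusted p = 0.000213). The tissue effects had opposite directions. Ptgs2 rose 8.63-fold in CD103+ DCs (3.11 ± 0.48, adjusted p = 3.01e-05) and fell 2.58-fold in double-positive DCs (-1.37 ± 0.39, adjusted p = 0.00619), and in CD11b+ DCs the difference was -0.44 ± 0.38 (adjusted p = 0.394). The F test of unequal effects passed (adjusted p = 5.81e-05). The fall in double-positive DCs no longer passed without replicate A or C of LP double-positive DCs (adjusted p = 0.0150 and 0.0239) or replicate A or B of LN double-positive DCs (adjusted p = 0.0353 and 0.0308). The highest LN values, 243 and 182 CPM, were those of the 2 libraries with both Xist and Ddx3y. Without these 2 libraries Ptgs2 fell in CD11b+ DCs too (-1.12 ± 0.24, adjusted p = 0.00274).

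Compared per kilobase of exon, which allows levels of different genes to be set side by side, Ptgs2 held most of the cyclooxygenase reads in 5 of the 6 groups. Its share of the sum of Ptgs1 and Ptgs2 was 81.6% ± 2.12 in LP CD11b+ DCs, 96.4% ± 0.993 in LP double-positive DCs and 92.6% ± 4.71, 98.4% ± 1.20 and 97.5% ± 1.47 in LN CD11b+, CD103+ and double-positive DCs (SD, n = 3 each). In LP CD103+ DCs the share was 21.2% ± 5.88, with libraries at 18.2%, 17.5% and 28.0%, all below every other library. In this group Ptgs1 was the more abundant of the pair.

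**Figure D3:**
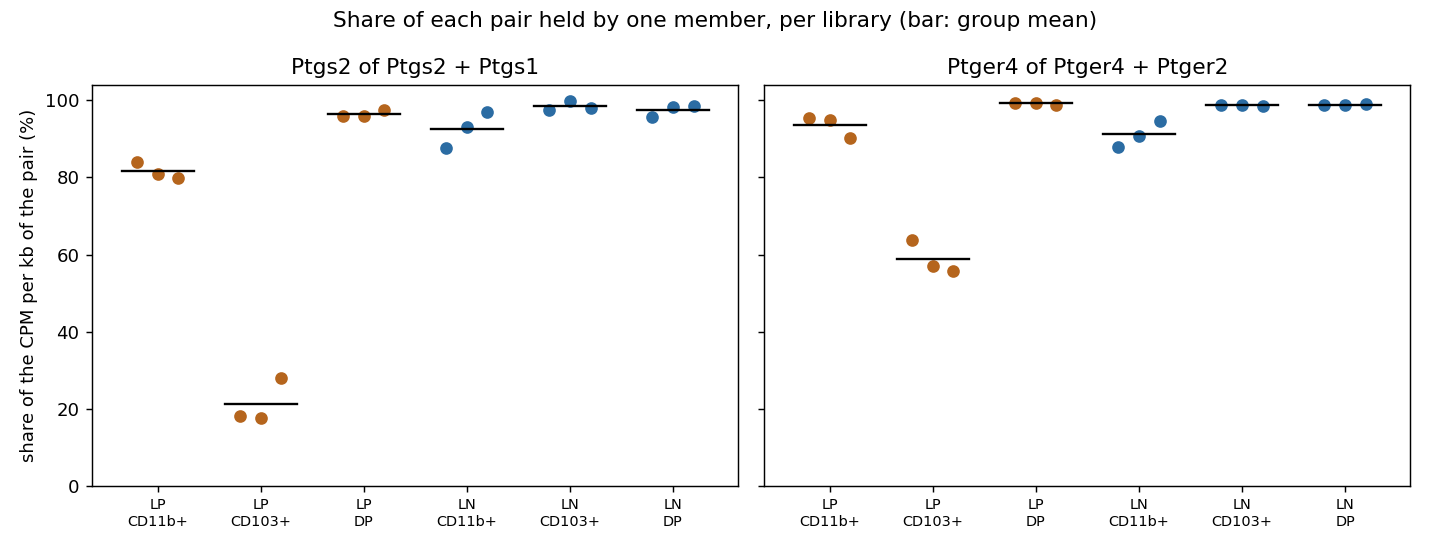
Share in percent of Ptgs2 in the summed level per kilobase of Ptgs2 and Ptgs1 (left) and of Ptger4 in that of Ptger4 and Ptger2 (right) against the 6 groups. Points are libraries and bars are group means. LP CD103+ DCs are apart from the rest in both panels, with means of 21.2% and 58.7%.

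Ptges encodes microsomal PGE synthase 1, which turns the cyclooxygenase product into PGE2 (chromosome 2, 30889471 to 30929863, minus strand). It was low throughout. LN CD11b+ DCs held the most, 7.00, 8.08 and 6.43 CPM, above all other libraries, followed by LP CD11b+ DCs at 3.09, 1.54 and 2.97 CPM and LN double-positive DCs at 1.56, 2.09 and 2.19 CPM. The LP CD103+ and double-positive DCs were at 0.321 to 1.08 CPM, and LN CD103+ DCs at 1.08, 1.14 and 0 CPM. The only comparison that passed was that of LN CD103+ with LN CD11b+ DCs, in which Ptges was 9.61-fold lower (-3.26 ± 0.69, adjusted p = 0.000735). The LN against LP difference in CD11b+ DCs was 1.499 ± 0.63 (adjusted p = 0.0701). Replicate C of LN CD103+ DCs, the library without a read, decided these calls. Without it the standard errors of Ptges were smaller and 4 further comparisons passed, among them LN against LP in CD11b+ DCs (1.502 ± 0.36, adjusted p = 0.00366) and LP CD103+ against LP CD11b+ DCs (-1.71 ± 0.38, adjusted p = 0.00193). The others were double-positive against CD11b+ DCs in the LP (-1.63, adjusted p = 0.00849) and in the LN (-1.89, adjusted p = 0.000561).

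Ptger2 and Ptger4 encode the PGE2 receptors EP2 and EP4. Ptger2 lies on chromosome 14 at 44988195 to 45003820 (plus strand) and Ptger4 on chromosome 15 at 5206661 to 5244187 (minus strand). Their upstream stretches are shown as for the cyclooxygenases, since this pair also moved apart. They cover chr14:44987861-44988110 (plus strand) for Ptger2 and chr15:5244188-5244437 (minus strand) for Ptger4, again in GRCm38.p6 with CpG dinucleotides in capitals.
Ptger2: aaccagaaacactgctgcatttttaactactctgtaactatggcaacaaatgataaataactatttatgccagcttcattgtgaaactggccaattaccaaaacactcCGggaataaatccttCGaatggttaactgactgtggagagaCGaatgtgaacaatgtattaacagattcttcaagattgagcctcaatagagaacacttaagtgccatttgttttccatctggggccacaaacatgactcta
Ptger4: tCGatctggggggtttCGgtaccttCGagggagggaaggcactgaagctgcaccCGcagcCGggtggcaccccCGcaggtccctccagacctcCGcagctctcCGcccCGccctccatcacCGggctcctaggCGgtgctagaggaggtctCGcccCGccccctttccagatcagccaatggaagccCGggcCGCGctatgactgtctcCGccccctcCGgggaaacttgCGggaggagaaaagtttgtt
The Ptger2 stretch had 38% G+C and 3 CpG dinucleotides and the Ptger4 stretch 66.8% and 19. Of each pair, the gene with more reads per kilobase in most groups, Ptgs2 or Ptger4, was thus the one with more CpG dinucleotides, which is a description of 4 genes. None of the motifs above matched in either stretch.

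Ptger2 was at 5.96, 5.86 and 9.95 CPM in LP CD11b+ DCs, at 19.6, 22.2 and 26.8 CPM in LP CD103+ DCs and at 0.745, 0.508 and 1.11 CPM in LP double-positive DCs. LP CD103+ DCs were above, and LP double-positive DCs below, all libraries of the other 5 groups. The LN groups lay in between, at 10.2, 13.6 and 7.46 CPM in CD11b+ DCs, 2.99, 2.95 and 3.11 CPM in CD103+ DCs and 3.24, 4.05 and 3.09 CPM in double-positive DCs. Ptger2 fell 7.56-fold from LP to LN in CD103+ DCs (-2.92 ± 0.29, adjusted p = 1.73e-07) and rose 4.39-fold in double-positive DCs (2.14 ± 0.31, adjusted p = 1.33e-05), with 0.52 ± 0.27 in CD11b+ DCs (adjusted p = 0.141). The F test passed (adjusted p = 2.16e-07). The gap of 28.9-fold between LP CD103+ and LP double-positive DCs (adjusted p = 4.94e-09) stood against a difference of 0.20 ± 0.28 between the same subsets in the LN (adjusted p = 0.666). Exons of Ptger2 overlap those of the antisense gene Gm17173, which had 167 reads over the 18 libraries. The counts of Ptger2 are uncertain where these exons overlap.

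Ptger4 was at 156, 143 and 119 CPM in LP CD11b+ DCs, at 44.0, 37.4 and 43.0 CPM in LP CD103+ DCs and at 138, 112 and 125 CPM in LP double-positive DCs. In the LN it was at 96.2, 173 and 169.9 CPM in CD11b+ DCs, at 298, 320.1 and 291 CPM in CD103+ DCs and at 309, 405 and 377 CPM in double-positive DCs. LP CD103+ DCs were thus the lowest group, and in the LN the CD103+ and double-positive DCs, which overlapped each other, lay above all other libraries. Ptger4 rose 7.31-fold in CD103+ DCs (2.87 ± 0.19, adjusted p = 8.82e-10) and 2.91-fold in double-positive DCs (1.54 ± 0.18, adjusted p = 1.13e-06), whereas CD11b+ DCs showed 0.07 ± 0.17 (adjusted p = 0.793). The F test passed (adjusted p = 6.52e-07). In the LN, Ptger4 was 2.07-fold higher in CD103+ than in CD11b+ DCs (1.05 ± 0.17, adjusted p = 8.08e-05), a value close to the limit that was 0.62 with total-count scaling, 0.78 without replicate A of LN CD11b+ DCs and 0.99 without replicate B of LN CD103+ DCs. It was 2.48-fold higher in double-positive than in CD11b+ DCs of the LN (1.31 ± 0.18, adjusted p = 1.34e-05), or 0.94 on the log2 scale with total-count scaling. Exons of Ptger4 overlap those of Ttc33 on the other strand, which ranged from 16.4 to 24.9 CPM over the 18 libraries, so the counts of Ptger4 are uncertain where the exons overlap. The share of Ptger4 in the sum of both receptors per kilobase was 58.7% ± 4.35 in LP CD103+ DCs and between 91.2% ± 3.34 (LN CD11b+) and 99.2% ± 0.288 (LP double-positive) in the other groups (SD, n = 3 each).

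Taken by comparison, the 10 genes divided as follows. They and the wider lists below were chosen with earlier results of these data known. Their counts beside the shares of all genes are therefore descriptions and no test of the pathway. In CD11b+ DCs, 0 passed as higher in the LN and 3 as lower (Pla2g4a, Alox5 and Ptgs1), where 10.3% and 4.93% of all 17074 genes tested did. In CD103+ DCs, 2 were higher (Ptgs2 and Ptger4), against 19.8% of all genes, and 5 lower (Alox5ap, Alox5, Ltc4s, Ptgs1 and Ptger2), against 15.1%. In double-positive DCs, 2 were higher (Ptger2 and Ptger4), against 18.6%, and 5 lower (Pla2g4a, Alox5ap, Alox5, Ptgs1 and Ptgs2), against 13.6%. The median log2 fold change of the 10 genes was -0.85, -1.16 and -1.18 in CD11b+, CD103+ and double-positive DCs, and that of all genes tested was 0.03, 0.04 and 0.07. The F test passed for 5 of the 10 genes, against 31.5% of all genes. In CD11b+ DCs, Ltc4s and Ptges passed too without replicate C of LN CD103+ DCs, and Pla2g4a no longer passed with total-count scaling. Without the 2 LN libraries that hold both Xist and Ddx3y, Ptgs2 passed too in CD11b+ DCs. No call of a member changed in the other 2 subsets without them.

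**Figure D4:**
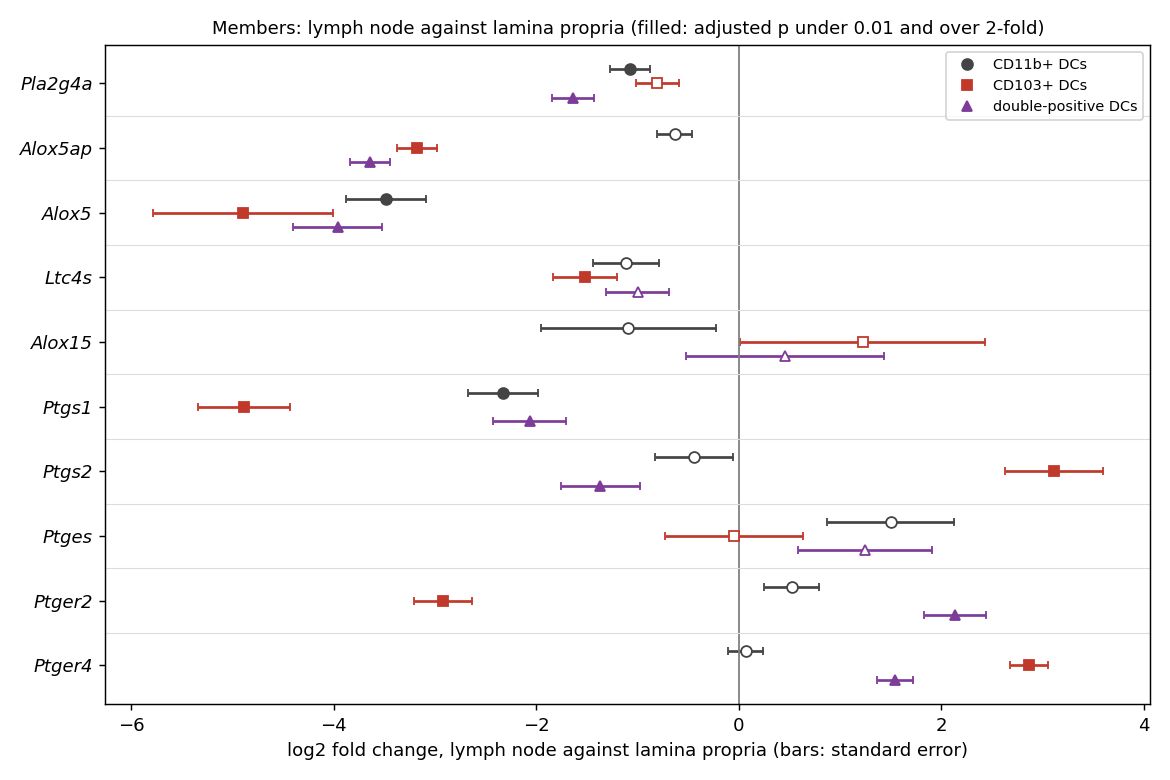
Log2 fold change of the LN against the LP for each of the 10 genes in CD11b+ (circles), CD103+ (squares) and double-positive DCs (triangles). Bars are standard errors and filled symbols passed the test. Alox5 and Ptgs1 lie left of 0 in all 3 subsets, Ptgs2 and Ptger2 lie on opposite sides in CD103+ and double-positive DCs, and Ptger4 reaches 2.87 in CD103+ DCs.

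Within the LP, 8 of the 10 genes passed between CD103+ and CD11b+ DCs, where 15.7% of all genes did, with Ltc4s and Ptger2 higher in CD103+ DCs and 6 genes lower. Between double-positive and CD11b+ DCs 5 passed (1 higher, Ltc4s, and 4 lower), against 4.81% of all genes, and between double-positive and CD103+ DCs 6 passed (5 higher and 1 lower, Ptger2), against 13.6%. Within the LN, all 10 passed between CD103+ and CD11b+ DCs, against 25.9% of all genes, with Ltc4s and Ptger4 higher in CD103+ DCs and 8 genes lower. Between double-positive and CD11b+ DCs 6 passed (2 higher and 4 lower), against 16.7%, and between double-positive and CD103+ DCs 4 passed (all higher, Pla2g4a, Alox5, Ptgs1 and Ptgs2), against 6.53%. Of all genes called between LN CD103+ and LN CD11b+ DCs 39.6% were higher, and 19.5% with total-count scaling. Between LN double-positive and LN CD11b+ DCs these shares were 41.3% and 19.3%. With total counts, Ltc4s and Ptger4 no longer passed between LN CD103+ and LN CD11b+ DCs. Between LN double-positive and LN CD11b+ DCs Ptger4 no longer passed, while Pla2g4a and Ptges did. With each library left out in turn, the counts in the LP were 8 to 9, 4 to 6 and 6, in the order given above. Those in the LN were 8 to 10, 6 to 7 and 3 to 4.

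The wider pathway was described with 85 further genes in 8 lists, of which 70 passed the filter on low counts. From LP to LN, 10 rose and 10 fell in CD11b+ DCs, 15 rose and 18 fell in CD103+ DCs, and 15 rose and 20 fell in double-positive DCs. Of all genes 10.3%, 19.8% and 18.6% rose and 4.93%, 15.1% and 13.6% fell in these subsets. The counts of each list below stand beside the same shares. Against 31.5% of all genes, the F test passed for 33 of the 70. Their median log2 fold changes, 0.01, 0.06 and 0.18, were near those of all genes.

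Among 12 tested genes of arachidonate supply other than Pla2g4a, 4, 4 and 6 rose and 1, 1 and 0 fell in CD11b+, CD103+ and double-positive DCs. Pla2g4f, another cytosolic phospholipase A2, was at 0.499 to 2.79 CPM in the LP groups and at 46.9, 72.9 and 207 CPM in LN CD11b+, CD103+ and double-positive DCs, with log2 changes of 5.41 ± 0.50, 7.37 ± 0.57 and 6.21 ± 0.48 (all adjusted p at most 4.1e-07). Pla2g4a fell or did not pass in the same comparisons. Pla2g16, a phospholipase of adipocytes and other cells, also rose in all 3 subsets and reached 576 ± 57.4 CPM in LN CD103+ DCs from 103 ± 16.1 CPM in the LP. Faah, which breaks down the arachidonate amide anandamide, rose by 2.95, 2.13 and 4.21 on the log2 scale. Pla2g7, the secreted platelet-activating factor hydrolase, fell in CD11b+ DCs (-1.60 ± 0.35, adjusted p = 0.0017) and rose in CD103+ (3.16 ± 0.38) and double-positive DCs (2.54 ± 0.36). Pla2g2d, a secreted phospholipase A2, rose in double-positive DCs (2.86 ± 0.44), with 0.82 and 1.68 in CD11b+ and CD103+ DCs, and Mgll, the monoacylglycerol lipase, rose in double-positive DCs (3.08 ± 0.45), with 0.47 and 0.87. Pla2g6 passed in CD11b+ DCs (1.03), and Pla2g12a fell in CD103+ DCs (-1.22).

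The prostanoid synthases beyond the members include those that turn the cyclooxygenase product into thromboxane, prostacyclin or prostaglandin D2. Of 8 tested, 2, 4 and 3 fell and 0, 0 and 1 rose in CD11b+, CD103+ and double-positive DCs. Tbxas1, thromboxane A synthase, was at 136 ± 25.6, 194 ± 29.8 and 94.3 ± 26.4 CPM in LP CD11b+, CD103+ and double-positive DCs and at 13.7 ± 1.36, 3.67 ± 0.744 and 4.74 ± 0.806 CPM in the LN. It fell in all 3 subsets, most in CD103+ DCs (-5.72 ± 0.25, adjusted p = 6.5e-12), with -3.31 ± 0.21 and -4.31 ± 0.23 in CD11b+ and double-positive DCs. Hpgds, the hematopoietic prostaglandin D synthase, fell in all 3 subsets (-1.63, -4.51 and -2.78). Ptgis, prostacyclin synthase, stood out in LP CD103+ DCs at 98.8 ± 20.9 CPM, against 0.345 ± 0.0873 CPM in LP CD11b+ and 1.35 ± 0.223 CPM in LP double-positive DCs, and it fell in CD103+ DCs (-3.25 ± 0.28) while it rose in double-positive DCs (1.41 ± 0.30). Akr1b3, an aldose reductase with prostaglandin F synthase activity, fell in CD103+ and double-positive DCs (-1.34 and -1.35).

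Of 5 tested genes for prostanoid transport and breakdown, 1, 3 and 3 fell and 0, 1 and 0 rose. Hpgd, the dehydrogenase that inactivates PGE2, was at 135 ± 23.2 and 165 ± 14.2 CPM in LP CD11b+ and double-positive DCs and at 7.03 ± 1.56 CPM in LP CD103+ DCs. It fell in all 3 subsets (-2.00 ± 0.27, -3.23 ± 0.40 and -3.96 ± 0.30 on the log2 scale), to 33.6 ± 7.59 CPM or less in the LN. The sum of 11 epithelial markers had the same order of groups in the LP, at 223 to 543, 64.0 to 112 and 575 to 844 CPM in CD11b+, CD103+ and double-positive DCs, and was at most 71.2 CPM in the LN. Its part in the level of Hpgd was not tested. Abcc4, an exporter of prostaglandins, fell in CD103+ and double-positive DCs (-1.41 and -1.08).

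The other prostanoid receptors were mostly low. Of 4 tested, 2, 2 and 2 rose and 0, 1 and 1 fell. Ptger3, the inhibitory PGE2 receptor EP3, was at 55.8 ± 8.60 CPM in LP double-positive DCs and at 8.995 ± 4.25 and 2.34 ± 0.378 CPM in LP CD11b+ and CD103+ DCs. It rose in CD11b+ DCs (1.52 ± 0.36, adjusted p = 0.0028) and fell in CD103+ (-3.74 ± 0.56) and double-positive DCs (-3.88 ± 0.39). Tbxa2r, the thromboxane receptor, rose in all 3 subsets (3.10, 5.63 and 5.61) to at most 4.54 ± 1.93 CPM, opposite to Tbxas1. Ptgir, the prostacyclin receptor, was highest in CD11b+ DCs (7.16 ± 2.17 CPM in the LP) and rose in CD103+ and double-positive DCs to 0.864 ± 0.858 and 1.09 ± 0.701 CPM.

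Of 8 tested genes of leukotriene enzymes and export, 3, 3 and 4 fell and 1, 2 and 1 rose. Lta4h, the hydrolase that makes leukotriene B4, was at 423 ± 51.1 and 412 ± 12 CPM in LP CD11b+ and double-positive DCs, and passed in double-positive DCs only (-2.20 ± 0.10), with -0.94 ± 0.10 and -0.53 ± 0.10 in CD11b+ and CD103+ DCs. Cyp4f18, which oxidises leukotriene B4, fell in CD11b+ (-2.28 ± 0.27) and double-positive DCs (-2.93 ± 0.28) and was at 1.79 ± 0.256 CPM in LP CD103+ DCs. Ggt5, which turns leukotriene C4 into D4, fell in CD103+ and double-positive DCs (-2.25 and -4.37). The microsomal glutathione transferases moved apart, with Mgst2 rising (2.53, 4.71 and 2.91) and Mgst3 falling (-1.55, -1.97 and -1.06) in all 3 subsets. Of the 5 tested genes of other lipoxygenases and epoxide hydrolase, 0, 1 and 1 rose and none fell, and Ephx2, soluble epoxide hydrolase, was that which rose in double-positive DCs (1.84 ± 0.37).

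Of 7 tested receptors for leukotrienes and other lipid mediators, 3, 2 and 6 fell and 1, 0 and 0 rose. Cysltr1, the cysteinyl leukotriene receptor 1, was at 133 ± 3.29, 115 ± 3.49 and 181 ± 4.85 CPM in LP CD11b+, CD103+ and double-positive DCs and at 29.3 ± 1.62, 1.74 ± 0.456 and 6.43 ± 1.62 CPM in the LN. It fell in all 3 subsets (-2.18 ± 0.13, -6.04 ± 0.17 and -4.81 ± 0.15 on the log2 scale, adjusted p at most 3.7e-09), as did Alox5. Ltb4r1, the high-affinity leukotriene B4 receptor, was at 86.6 ± 15.7 and 51.8 ± 13.9 CPM in LP CD11b+ and double-positive DCs, at 0.798 ± 0.354 CPM in LP CD103+ DCs, and fell in CD11b+ (-2.61 ± 0.28) and double-positive DCs (-4.18 ± 0.31). Cysltr2 rose in CD11b+ DCs (1.68 ± 0.28) and fell in double-positive DCs (-1.04 ± 0.28). Gpr18 fell in CD103+ and double-positive DCs (-1.01 and -1.97). Fpr2 fell in CD11b+ and double-positive DCs, from 7.54 ± 5.13 and 1.06 ± 0.216 CPM, and Cmklr1 reached at most 1.301 ± 0.722 CPM and passed in no subset.

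Below EP2 and EP4, the cyclic AMP list held 21 genes, all tested, of which 2, 5 and 4 rose and 0, 4 and 3 fell. Of all genes 10.3%, 19.8% and 18.6% rose and 4.93%, 15.1% and 13.6% fell, and the counts of this list were near these shares. Adenylyl cyclases differed in direction. Adcy6 was at 0.234 to 1.25 CPM in the LP groups and at 12.9 ± 3.72, 93.4 ± 4.36 and 69.7 ± 11.7 CPM in LN CD11b+, CD103+ and double-positive DCs (log2 changes 5.77, 6.26 and 6.14). Adcy7 fell in CD103+ (-2.37 ± 0.10) and double-positive DCs (-2.61 ± 0.10). The protein kinase A subunits Prkacb (-1.80 and -1.44) and Prkar2a (-2.51 and -1.28) fell in the same subsets, and Prkar2b fell in CD103+ DCs (-2.45). Crem, a transcription factor that responds to cyclic AMP, rose in CD103+ DCs (1.31 ± 0.24).

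**Figure D5:**
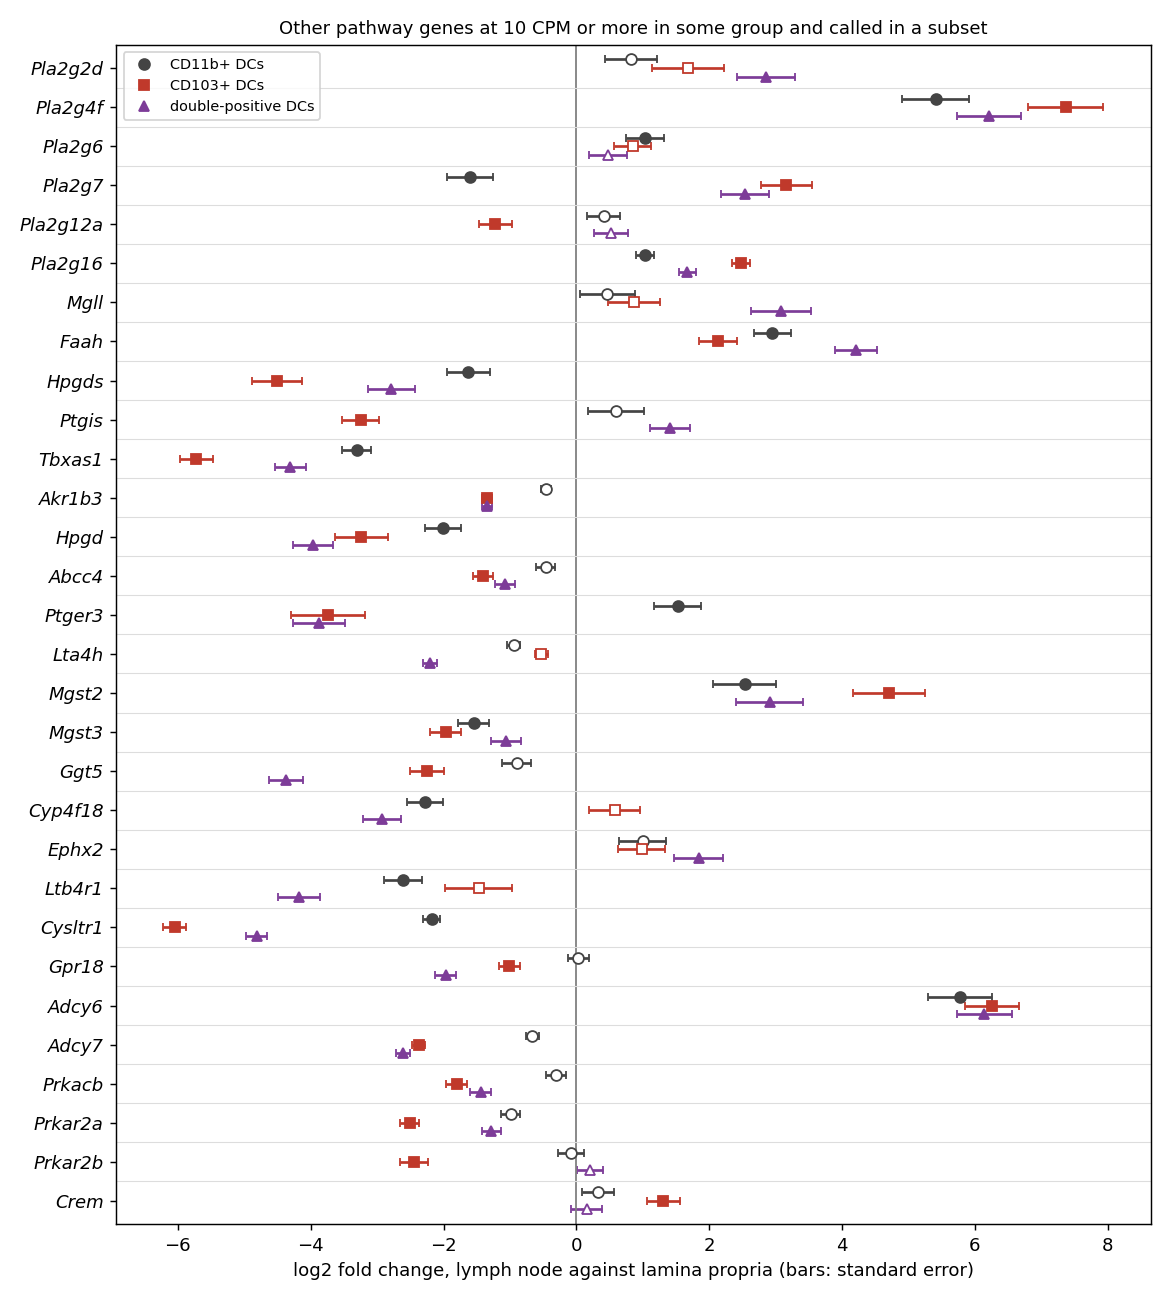
Log2 fold change of the LN against the LP in CD11b+ (circles), CD103+ (squares) and double-positive DCs (triangles) for the pathway genes beyond the 10 that reached 10 CPM in some group and passed in at least 1 subset. Bars are standard errors and filled symbols passed the test. Pla2g4f and Adcy6 lie right of 5 in every subset, and Cysltr1 and Tbxas1 lie left of -2 in every subset.

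Genes whose levels followed each member most closely were sought over the 18 libraries by Pearson r of log2(CPM + 1) among 9917 genes that reached 10 CPM in some group. These r values share the same libraries and group structure and are descriptions. The nearest to Ptgs2 were Zfp36 (r = 0.972), Bhlhe40 (0.964) and Wls (0.962), and those to Ptger4 were Cask (0.976), Stat4 (0.975) and Lpp (0.969). Alox5ap was followed by Cd300c2, Cd244a and Stap1 (each 0.990), Alox5 by Klra2 (0.985), C5ar1 (0.971) and Il1rl1 (0.969), and Pla2g4a by Selenbp1 (0.973), Ms4a6d (0.972) and Tspan14 (0.971). Ptgs1 was nearest to Rcan3 (0.955), Atxn3 (0.954) and Rab3il1 (0.947), Ltc4s to Tnni2 (0.941), Htr7 (0.934) and Tmeff1 (0.924), Ptges to Slc25a37 (0.946), Kcnk1 (0.942) and Klrb1b (0.930), and Ptger2 to Cbx6 (0.957), Hes1 (0.914) and Pla2g12a (0.903). Alox15 was nearest to Retnlg (0.964), which was highest in the same library, and then to Dok3 (0.872) and Lpl (0.844). Among the members themselves, Pla2g4a and Alox5 had r = 0.917, Alox5 and Ptgs1 0.884, Alox5ap and Ptgs1 0.878, and Ptgs1 and Ptgs2 0.354. The most negative values were those of Ltc4s and Ptges (-0.785), Alox5ap and Ptger4 (-0.658), and Ptgs2 and Ptger2 (-0.621).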

How the data were processed

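The authors deposited raw read counts per gene, without normalization, for 54232 Ensembl genes in 18 libraries. The submitters' processing notes name FastQC 0.11.7, STAR 2.6 and GRCm38. For the study's other DC libraries the methods describe unique alignments and gene counts made without regard to strand. The counting step of these 18 libraries, not given in the sources used here, was taken to be alike. Such counting leaves out reads shared by near-identical genes or lying where 2 genes overlap. Exons of Alox5ap and Ptgs1 also overlap genes on the other strand, Gm19719 and Gm43621, with 122 and 14 reads over all libraries. Symbols were matched by identifier and positions taken from GENCODE vM21.

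Counts were normalized by TMM, filtered with filterByExpr over the 6 groups and fitted with edgeR 4.0.16 (R 4.3.3, glmQLFit and glmQLFTest) with 1 mean a group. A gene was called at an adjusted p under 0.01 and over 2-fold, and in the F test of the interaction at an adjusted p under 0.01. Standard errors were derived from the F statistic. The fit was tested on simulated data. Alternatives were the size factors and test of DESeq2 1.42.0, total counts, no filter or at least 100 counts in 3 libraries, thinning to equal depth, an adjusted p under 0.05, the 6 libraries compared alone, the replicate letter as a block, no libraries with both Xist and Ddx3y, and each library left out.

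The members and lists were chosen with earlier results of these data known. Of the wider lists, genes named reached 10 CPM in some group and were called in a tissue comparison, or were receptors that reached 1 CPM. The 3 genes nearest each member and any marker a result turns on were named too. In the LP, deviations of same-letter libraries from their group means correlated in all 9 pairs (r 0.144 to 0.284), above the limit of 0.1, so the letters pair LP libraries. Promoter windows came from RefSeq (GRCm38.p6), matched by symbol for 8 of the 10 members.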

Additional observations from a re-analysis of the deposited data

Results flagged for a closer look

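The tissue effect, LN against LP, differed between the 3 subsets by edgeR's F test of the interaction for 5 of the 10 members. The adjusted p was 1.71e-07 for Alox5ap, 2.16e-07 for Ptger2, 6.52e-07 for Ptger4, 5.81e-05 for Ptgs2 and 0.00154 for Ptgs1. Ptger2 fell in all CD103+ LN libraries (7.56-fold) and was higher in all double-positive LN libraries (4.39-fold) than in the LP libraries of the same subset. Ptgs2 rose in CD103+ DCs (8.63-fold) and fell in double-positive DCs (2.58-fold). Alox5ap and Ptger4 passed in CD103+ and double-positive DCs and not in CD11b+ DCs, and the fall of Ptgs1 was larger in CD103+ DCs (29.6-fold) than in CD11b+ (5.03-fold) or double-positive DCs (4.18-fold).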

How the results depend on the processing

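Over all alternatives the 10 members kept their side of the threshold in 2788 recomputed tests. These include uncalled differences whose sign changed with a move of under 1 standard error. An example is Ptger4 in CD11b+ DCs, at -0.07 to 0.30 with each library left out. A call was lost in 35 tests and gained in 32, and in 3 the sign changed with a larger move. The 3 were not called, and each turned on 1 left-out library. With each library left out in turn, Alox15 in CD11b+ DCs ranged from -1.71 to 0.86, Ltc4s between LP double-positive and CD103+ DCs from -0.30 to 0.21, and Ptgs2 between LN double-positive and CD11b+ DCs from -0.84 to 0.36, and the count of members called in CD11b+ DCs from 2 to 5. Calls of Alox5, Alox5ap, Ptgs1 and Ptger2 changed under no alternative run. Total-count scaling moved the median log2 fold change of all genes by 0.14, -0.22 and -0.17 in the tissue comparisons of CD11b+, CD103+ and double-positive DCs, and by -0.43 and -0.37 in LN CD103+ and LN double-positive against LN CD11b+ DCs, and it moved 4 of the mean levels by over 1 SD. Fold changes against Alox5 in LN CD103+ DCs rest on 1 read and are imprecise.

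No call of a member changed under either replicate block. Among LN libraries the same-letter r was 0.00450 to 0.186, highest with its own letter in 8 of 9 pairs. Only replicate C of CD11b+ and double-positive DCs, the libraries with both Xist and Ddx3y, was above the limit of 0.1. LP and LN libraries did not pair (-0.122 to 0.0748, 12 of 27).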
